A study of Rattus norvegicus with 6 samples.

Results

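Adenosine is a signalling nucleoside of the brain, and the 9 genes described here are the adenosine receptors and the enzymes and carriers that form, remove and transport adenosine, out of 38445 genes counted in the amygdala of rats given a single injection of ethanol or saline. The members were taken by symbol: the receptors Adora1, Adora2a, Adora2b and Adora3, the adenosine-forming ecto-enzyme Nt5e, the adenosine-removing enzymes Ada and Adk, and the equilibrative carriers Slc29a1 and Slc29a2. Adult male Sprague Dawley rats received ethanol at 1 g/kg or saline by intraperitoneal injection, and the amygdala was collected after 1 h. Each group held 6 rats, and RNA from 2 rats was pooled into each library, so that 3 ethanol and 3 control (saline) libraries were compared. All rats were wild type, and nothing else was given to either group per the labels. The study asked whether acute ethanol changes transcript levels in the amygdala, and only that question is addressed by this contrast.

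Extracellular adenosine is formed mainly from ATP and its breakdown products, with Nt5e carrying out the last step from AMP. It is taken up through the equilibrative carriers and is then phosphorylated by Adk or deaminated by Ada. Adora1 couples to inhibitory G proteins and dampens transmitter release, whereas Adora2a and Adora2b couple to stimulatory G proteins. In the forebrain, Adora2a is best known from the striatal projection neurons that also carry the dopamine receptor Drd2. Ethanol is known to inhibit the carrier encoded by Slc29a1, which links this pathway to the acute actions of alcohol. These are statements of background and not results of these libraries.

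The libraries held between 62576504 and 70755739 reads assigned to genes. Levels are given in CPM, counts scaled to a common library total, and the limit that a count of 0 allows (3 counts) is 0.0424 to 0.0479 CPM, which allows for counting error only. The tissue was bulk amygdala, so fewer cells of a type and less RNA per cell cannot be told apart. Neuronal markers were present in every library, with Slc17a7, the vesicular glutamate transporter of cortical-type neurons, at 413 to 879 CPM and Gad1, the enzyme that makes GABA, at 361 to 464 CPM. The control and ethanol libraries differed in their markers of choroid plexus epithelium, whose 8 genes summed to 514 to 1116 CPM in the controls and to 11.7, 13.3 and 478 CPM in ethanol libraries 1, 2 and 3. Of the 7 tested genes of that list, 7 had a log2 fold change below 0 and 3 had an unadjusted p below 0.05, and Otx2 was at 0 in 5 of the 6 libraries. The 8 ependymal markers summed to 73.0 to 96.2 CPM in the controls and 55.7 to 60.7 CPM after ethanol. Of these 8 genes, 8 had a log2 fold change below 0 and 6 had an unadjusted p below 0.05, beside 4.15% of all genes tested. The marker lists were drawn up with earlier results of these data known. No marker was at 0 in all libraries except Siglech, Ly6c and Col1a2, and the last 2 each have a near-copy in the annotation.

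Across all genes, 0 of 18141 genes passed an adjusted p of 0.2 in edgeR's quasi-likelihood test (Benjamini-Hochberg over all of them), a background of 0.0%. An unadjusted p below 0.05 was reached by 753 genes, or 4.15%, of which 285 (1.57%) were higher and 468 (2.58%) lower after ethanol. By other tests on the same counts, DESeq2 called 74 genes, edgeR's likelihood ratio test 77 and limma-voom 0 at an adjusted p below 0.2, and no member was among them. Of the 9 members, 7 had enough reads to be tested and 2, Adora3 and Slc29a2, did not. None of the 7 passed the threshold, while 2 (Adora1 and Nt5e) had an unadjusted p below 0.05. The groups did not overlap for 2 members (Adora1, higher after ethanol, and Adk, lower), beside 8.85% of all genes tested (3.65% higher and 5.19% lower). The log2 fold change was above 0 for 3 members and below 0 for 4, with a median of -0.01 against 0.01 over all genes tested.

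Per kilobase of exon, Adk and Adora1 were the most abundant members, and Adora2a and Ada the least. Mean levels over the 6 libraries were 29.7 CPM per kb for Adk and 25.1 CPM per kb for Adora1, whose ranges overlapped and whose order held in 5 of 6 libraries. Adora2b followed at 6.04 CPM per kb, below Adora1 in all 6 libraries by a factor of 4.16 in the means. Slc29a1 at 3.75 and Nt5e at 3.69 CPM per kb could not be ordered, since each was the higher one in 3 of 6 libraries. Ada at 1.03 and Adora2a at 0.945 CPM per kb likewise exchanged places, with Ada higher in 3 of 6. The ranges of the other neighbours in this order did not overlap. Among the adenosine receptors with reads, the order per kb was therefore Adora1, Adora2b and Adora2a. The exon length used merges all annotated exons of a gene, 6666 bp for Adora2a and 1842 bp for Adora2b. In CPM without that division, Adora2a was above Adora2b in control 1 (10.8 against 10.02 CPM) and below it in every other library.

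**Figure D1:**
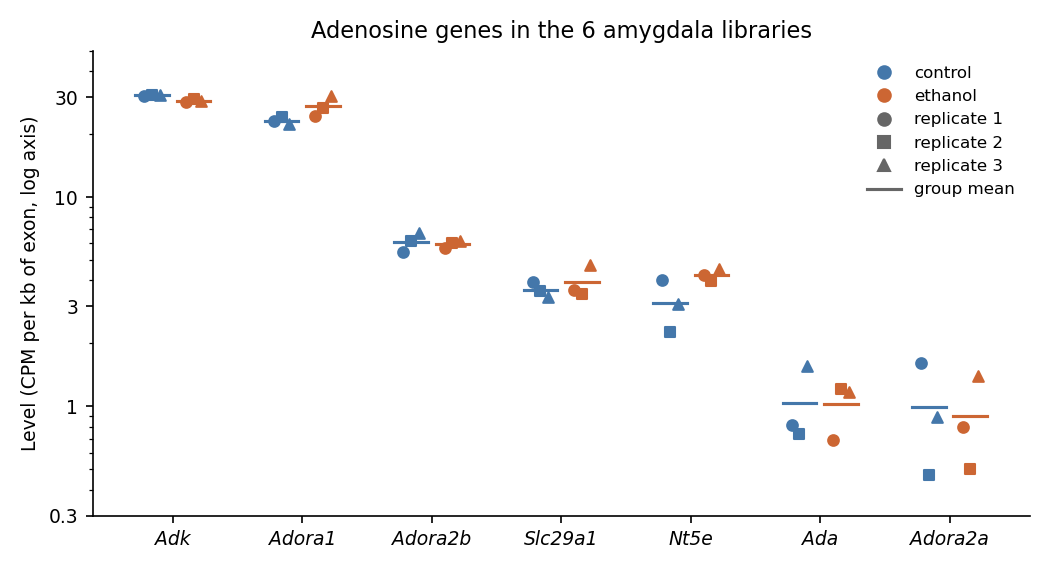
Level of the 7 members with enough reads to be tested, in CPM per kilobase of exon on a log axis. Points are single libraries (circles, squares and triangles for replicates 1, 2 and 3; blue for control, orange for ethanol) and bars are group means. Adk and Adora1 lie near 30 CPM per kb, Ada and Adora2a near 1 CPM per kb, and the points of Adora2a and Ada spread the most.

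The promoters of 8 members, all but Adora2a, were taken from RefSeq sequences of the rat assembly GRCr8, and those of 4 members are shown. Adora1, Nt5e and Adk are the members with the smallest unadjusted p or with groups that did not overlap, and Nt5e and Adora2b are known from other tissues as genes induced in hypoxia. The letters searched, on both strands, were the GC box GGGCGG and the core of the hypoxia response element in its forms GCGTG and ACGTG, the latter because the study followed the hypoxia-inducible factor Hif3a. Each sequence is the 250 bases before the annotated start, 5′ to 3′ on the strand of the gene, with every match in capitals. The Adora1 promoter is chr13:48246832-48247081 (minus strand), that of Nt5e is chr8:98150675-98150924 (plus), that of Adora2b is chr10:47439462-47439711 (plus) and that of Adk is chr15:3295746-3295995 (minus), all in GRCr8.
Adora1: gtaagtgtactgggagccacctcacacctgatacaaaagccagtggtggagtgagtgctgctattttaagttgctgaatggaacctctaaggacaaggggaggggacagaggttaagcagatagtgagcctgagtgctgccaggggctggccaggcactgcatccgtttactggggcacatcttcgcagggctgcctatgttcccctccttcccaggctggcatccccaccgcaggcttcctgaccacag
Nt5e: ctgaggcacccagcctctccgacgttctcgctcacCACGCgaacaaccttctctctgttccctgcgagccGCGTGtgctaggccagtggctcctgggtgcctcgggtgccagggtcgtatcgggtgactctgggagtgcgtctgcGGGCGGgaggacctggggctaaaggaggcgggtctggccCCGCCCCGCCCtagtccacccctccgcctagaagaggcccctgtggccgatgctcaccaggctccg
Adora2b: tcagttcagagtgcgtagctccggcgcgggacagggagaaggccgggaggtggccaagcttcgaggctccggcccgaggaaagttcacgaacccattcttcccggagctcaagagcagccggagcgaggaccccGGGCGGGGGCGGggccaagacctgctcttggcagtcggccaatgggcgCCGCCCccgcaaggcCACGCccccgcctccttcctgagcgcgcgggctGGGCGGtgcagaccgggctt
Adk: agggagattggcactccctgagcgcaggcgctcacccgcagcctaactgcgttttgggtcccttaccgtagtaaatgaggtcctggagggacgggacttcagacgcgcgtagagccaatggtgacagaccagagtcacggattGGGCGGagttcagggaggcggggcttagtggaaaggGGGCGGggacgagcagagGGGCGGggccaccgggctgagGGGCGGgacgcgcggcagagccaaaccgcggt
The Adora1 sequence stands apart from the other printed promoters by having no match and only 5 CpG dinucleotides in the 300 bases searched, which reach 50 bases past the start. Nt5e had 26 CpG dinucleotides, Adora2b 33 and Adk 26, beside a median of 7 over 33469 promoters. GCGTG was found in 3 of 8 member promoters (Nt5e with 2 matches, Adora2b with 1 and Ada with 1) and in 29.7% of all promoters of this length. ACGTG was found in 1 of 8 (Slc29a2) and in 19.3% of all, and the GC box in 6 of 8, Adora1 and Adora3 being without it, and in 33.1% of all. The cyclic AMP response half-site TGACG was in 0 of 8 member promoters (21.2% of all), and the glucocorticoid response half-site AGAACA in 1 of 8, Adora3 (20.7% of all). These are matches of letters in a window and say nothing of binding.

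Adora1, the inhibitory receptor, was the most abundant receptor and was higher in every ethanol library than in every control library, but it did not pass the adjusted threshold. The gene (NCBI gene 29290) lies on the minus strand of chr13:51042111-51076913 in Rnor_6.0, the build of the counts, with 3 exonic blocks of 2814 bp in total. The controls measured 64.7, 67.8 and 62.7 CPM and the ethanol libraries 68.8, 74.7 and 85.2 CPM, in replicate order. The lowest ethanol library stood just above the highest control, and the highest value of all was ethanol 3. The means were 65.0 ± 2.56 and 76.3 ± 8.33 CPM (SD, n = 3 each), which is 17.3% higher after ethanol. This is a log2 fold change of 0.23 with a standard error of 0.08 and a 95% interval from 0.04 to 0.42 (edgeR's quasi-likelihood test, p = 0.0262, Benjamini-Hochberg adjusted p = 1.00), and a 2-sided exact permutation test gave p = 0.1, the smallest that 3 against 3 libraries allow. Without ethanol 3 the log2 fold change was 0.14, and with the choroid plexus marker score as a term in the fit it was 0.43. That score was 0.753 to 1.85 in the controls and -2.38, -2.11 and 0.749 in ethanol libraries 1, 2 and 3. All controls thus scored above all ethanol libraries, with ethanol 3 just below control 1, so that fit cannot fully separate score and group. The part of the score in the Adora1 values was not tested beyond this fit.

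Adora2a, the receptor shared with Drd2 by striatal projection neurons, varied among libraries of one group far more than between the groups. The gene is on the minus strand of chr20:14265251-14282873 (NCBI gene 25369, 7 exonic blocks, 6666 bp). The controls measured 10.8, 3.11 and 5.90 CPM and the ethanol libraries 5.31, 3.36 and 9.32 CPM. Each group thus held 1 library near 10 CPM and 1 near 3 CPM, and the highest library exceeded the lowest by a factor of 3.47. The means were 6.60 ± 3.88 CPM in the controls and 6.00 ± 3.04 CPM after ethanol (SD, n = 3 each). Ethanol over control gave a log2 fold change of -0.13 (SE 0.48, 95% interval from -1.25 to 0.98, edgeR's quasi-likelihood test, p = 0.788, Benjamini-Hochberg adjusted p = 1.00), with an exact permutation p of 0.8. Its biological coefficient of variation, the spread between libraries beyond counting, was 0.409, at the 98.7th percentile of all genes tested, whose median was 0.111. The sign was positive without control 1 (0.41) and without ethanol 2 (0.15), so the direction rested on single libraries.

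Adora2a and Drd2 were highest and lowest in the same libraries, while other striatal-type markers ran differently in part. In the order of falling Adora2a (control 1, ethanol 3, control 3, ethanol 1, ethanol 2, control 2), Drd2 measured 10.6, 8.33, 4.53, 6.31, 4.91 and 3.42 CPM. Penk, the enkephalin precursor of the same neurons, measured 224, 193, 177, 257, 170 and 144 CPM, with its highest value in ethanol 1. Gpr6, an orphan receptor on the list, measured 3.90, 5.03, 3.88, 4.04, 5.49 and 3.73 CPM and was highest in ethanol 2. Pde10a, a striatal phosphodiesterase, was the second lowest in control 1, at 30.7 CPM. These genes were chosen after their values were seen. Slc17a7 ran close to the opposite way, at 413, 425, 554, 668, 879 and 770 CPM. The myelin gene Mbp measured 2719, 3651, 1982, 1325, 1802 and 1048 CPM, with the same libraries at its top and bottom. The 10 striatal-type markers summed to 373 to 543 CPM in the controls and 404 to 582 CPM after ethanol, and 8 of the 10 had a log2 fold change above 0. With a score of these markers as a term in the fit, the Adora2a log2 fold change was -0.53 (edgeR's quasi-likelihood test, Benjamini-Hochberg adjusted p = 0.539). The threshold was not passed in that fit either, and Adora2a is itself a gene of these neurons.

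**Figure D2:**
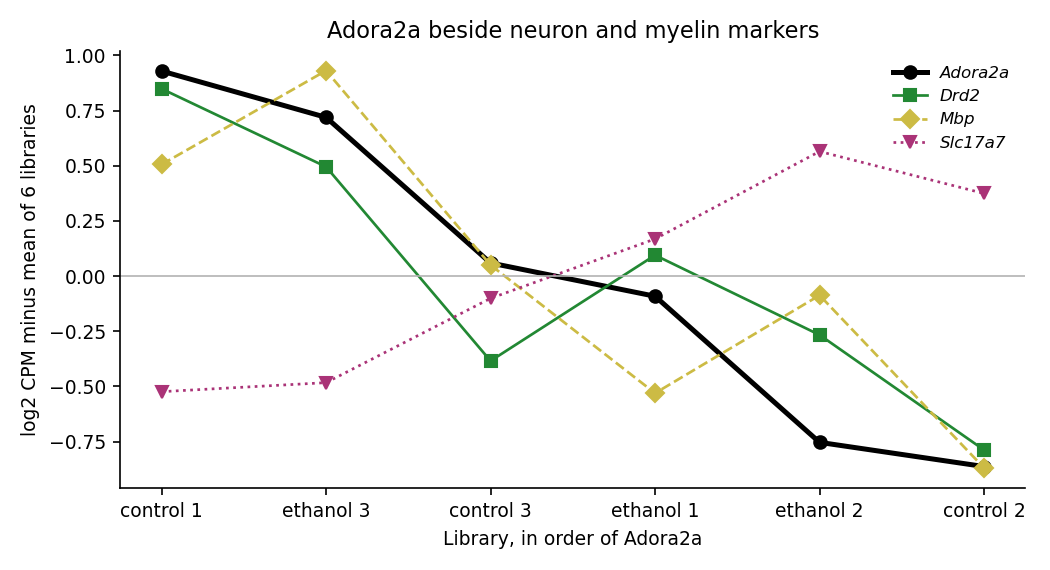
Adora2a and 3 marker genes in the 6 libraries, placed from left to right by falling Adora2a. The vertical axis is log2 CPM minus the gene's own mean over the 6 libraries. Drd2 and Mbp share the high values in control 1 and ethanol 3 and the low value in control 2 with Adora2a, while Slc17a7 is lowest in control 1 and ethanol 3.

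Adora2b, the low-affinity stimulatory receptor, was close to level in all libraries. It lies on the plus strand of chr10:48569563-48586366 (NCBI gene 29316, 2 exonic blocks, 1842 bp). The controls measured 10.02, 11.3 and 12.4 CPM and the ethanol libraries 10.6, 11.1 and 11.4 CPM, so all ethanol values lay inside the control range. Its log2 fold change was -0.03 (SE 0.10, 95% interval from -0.26 to 0.20), and leaving out single libraries moved it between -0.11 and 0.05. Its promoter above carries the most CpG dinucleotides of the 8 member promoters and 1 GCGTG.

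Adora3 is the remaining inhibitory receptor, and the gene entry with its symbol had 0 reads in all 6 libraries. In the RefSeq table used here the symbol belongs to NCBI gene 100911796, on the plus strand of chr2:208492231-208536910 with 2911 bp of exon. A near-copy, NCBI gene 25370, begins 155322 bp before it on the same strand at chr2:208336909-208379217, and 7 of the 9 exon lengths of Adora3 recur there. That entry, which has no symbol in the table, had 9 reads over the 6 libraries, and it may be the Adora3 gene itself or a second copy of it in this build. Reads that align to several places were not counted, so a count of 0 at such a gene limits uniquely placed reads and not the transcript. No fold change or test is given for Adora3.

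Nt5e, the ecto-enzyme that turns AMP into adenosine at the cell surface, had the largest log2 fold change of the tested members. The gene is on the plus strand of chr8:95969002-96012733 (NCBI gene 58813, 9 exonic blocks, 2826 bp). The controls measured 11.3, 6.39 and 8.75 CPM and the ethanol libraries 11.9, 11.3 and 12.8 CPM. The ethanol libraries lay close together and the controls were spread out, with control 1 just above ethanol 2, so the groups overlapped. The means were 8.82 ± 2.46 and 12.01 ± 0.790 CPM (SD, n = 3 each), 36.1% higher after ethanol. The log2 fold change was 0.45 (SE 0.19, 95% interval from 0.01 to 0.88, edgeR's quasi-likelihood test, p = 0.047, Benjamini-Hochberg adjusted p = 1.00), and the exact permutation p was 0.2. Without control 2, the library with the fewest Nt5e reads, the value was 0.26, and without control 1 it was 0.66. The Nt5e promoter printed above holds 2 GCGTG and 3 GC boxes, the latter overlapping in part.

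Adk, which phosphorylates adenosine to AMP and is the main route of its removal in the brain, was the steadiest member. It lies on the minus strand of chr15:3033535-3435888 (NCBI gene 25368, 12 exonic blocks, 1940 bp). The controls measured 59.1, 59.3 and 59.7 CPM and the ethanol libraries 55.0, 57.1 and 55.7 CPM. All 3 ethanol libraries lay below all 3 controls, by a margin of a few percent. The means were 59.4 ± 0.281 and 56.0 ± 1.08 CPM (SD, n = 3 each), 5.74% lower after ethanol. The log2 fold change was -0.09 (SE 0.05, 95% interval from -0.20 to 0.03, edgeR's quasi-likelihood test, p = 0.129, Benjamini-Hochberg adjusted p = 1.00), and the exact permutation p was 0.1, its smallest possible value. The controls varied by 0.474%, which is less than the 1.59% that counting alone gives at this depth. Leaving out single libraries moved the value between -0.10 and -0.07. The biological coefficient of variation of Adk was 0.0629, at the 0.843rd percentile of all genes tested.

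Ada, which deaminates adenosine to inosine, was scarce. The gene is on the minus strand of chr3:160115840-160139947 (NCBI gene 24165, 12 exonic blocks, 1395 bp). The controls held 74, 73 and 137 reads and the ethanol libraries 62, 108 and 113 reads, or 1.13, 1.03 and 2.16 CPM against 0.966, 1.68 and 1.62 CPM. The highest library was a control and the lowest an ethanol library, and the ranges of the groups overlapped in part. The log2 fold change was -0.01 (SE 0.33, 95% interval from -0.79 to 0.76), the widest of the members after Adora2a. It was 0.40 without control 3 and -0.21 without control 2.

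Slc29a1, the equilibrative carrier that ethanol is known to inhibit, did not differ beyond the spread of the libraries. It lies on the plus strand of chr9:17784468-17799008 (NCBI gene 63997, 18 exonic blocks, 3081 bp). The controls measured 12.04, 10.9 and 10.3 CPM and the ethanol libraries 11.1, 10.5 and 14.5 CPM. Only ethanol 3 stood outside the control range. The log2 fold change was 0.12 (SE 0.14, 95% interval from -0.19 to 0.44, edgeR's quasi-likelihood test, p = 0.387, Benjamini-Hochberg adjusted p = 1.00), with an exact permutation p of 0.6. Without ethanol 3 it was -0.03, and with the choroid plexus score as a term 0.40.

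Slc29a2, the carrier with lower sensitivity to the usual inhibitors, had 0 reads in all 6 libraries. It lies on the plus strand of chr1:220306622-220314631 (NCBI gene 65194, 12 exonic blocks, 4012 bp). A gene with the same total exon length, NCBI gene 108348052, begins 93304 bp further on, at chr1:220399926-220407935, and 22 of the 24 exon entries of Slc29a2 recur there by length. It had 0 reads too. The stretch without reads was wider than these genes: 22 neighbouring genes in a row, over 175 kb, had fewer than 50 reads each in the 6 libraries together, and 19 of them had 0. Npas4, the gene before that stretch, had 2636 reads and Yif1a, the gene after it, 4302. The boundary of 50 reads was chosen after the values were seen. As with Adora3, reads with several alignments were not counted, so neither presence nor absence of Slc29a2 transcript can be read from these files.

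**Figure D3:**
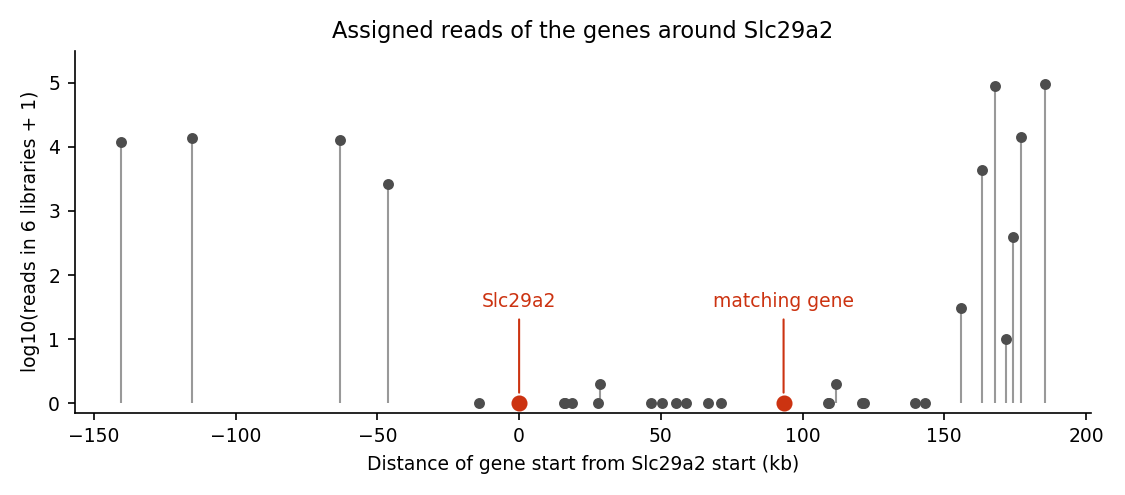
Reads assigned to each annotated gene around Slc29a2, summed over the 6 libraries, as log10 of the reads plus 1, against the distance of the gene's start from the start of Slc29a2 in kilobases. Slc29a2 and the gene with matching exon lengths (red) sit at 0 within a run of 22 genes with fewer than 50 reads each, and the genes next to the run have 2636 and 4302 reads.

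Transcripts of adenosine formation and removal were compared within libraries, since a ratio of 2 genes in one library does not depend on the scaling between libraries. Such a ratio measures neither enzyme activity nor adenosine. The ratio of Nt5e to Adk, in levels per kb, was 0.132, 0.0741 and 0.101 in the controls and 0.149, 0.136 and 0.158 after ethanol. Every ethanol library lay above every control, though control 1 came close to ethanol 2. The geometric means were 0.0994 and 0.147, a log2 difference of 0.57 with an exact permutation p of 0.1, the smallest possible, and 0.3 after Benjamini-Hochberg adjustment over the 3 ratios computed. Without control 2 the log2 difference was 0.35, and without control 1 it was 0.77. The ratio restates the Nt5e and Adk values above and is no separate evidence.

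The Adora1 to Adora2a ratio ranged from 14.2 in control 1 to 52.6 in ethanol 2. Control 2 stood close to ethanol 2 at 51.5, so the groups overlapped almost fully. Its log2 difference between the groups was 0.31 (exact permutation p = 0.7, adjusted 0.9), and it was -0.14 without control 1. Ada to Adk had geometric means of 0.0320 and 0.0345 (log2 difference 0.11, exact permutation p = 0.9, adjusted 0.9). No ratio of the carriers could be formed, because Slc29a2 was at 0.

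**Figure D4:**
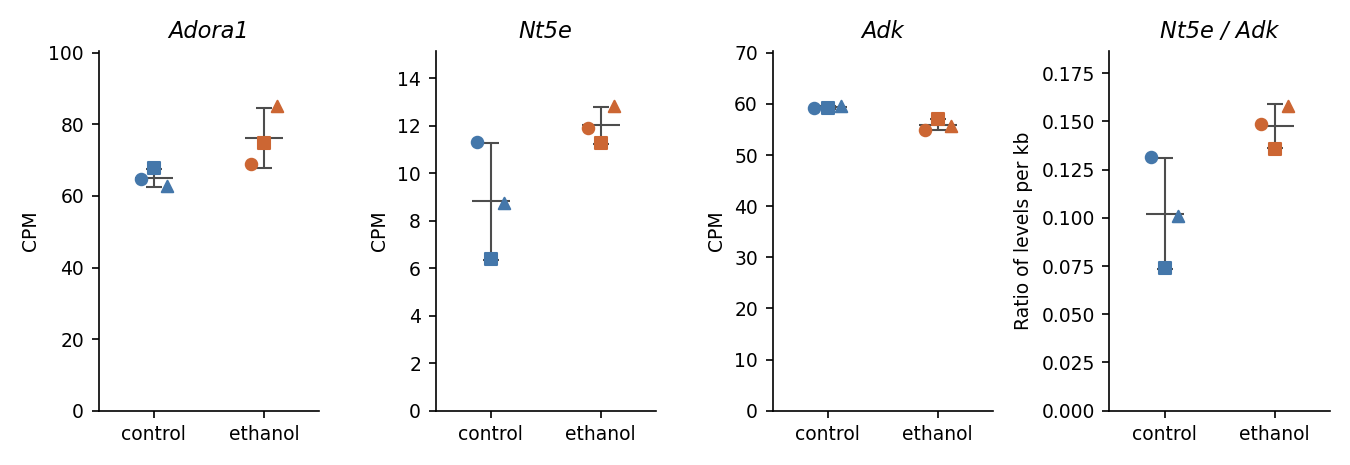
Adora1, Nt5e and Adk in CPM and the ratio of Nt5e to Adk in levels per kb, for each library (symbols as replicate number, circle 1, square 2, triangle 3) with the group mean and SD (n = 3). Axes start at 0. Adora1 and the ratio have all ethanol libraries above all controls, Adk has them below by a few percent, and control 1 overlaps the ethanol group for Nt5e.

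The other genes of the pathway lists, which cover purine handling, ATP release and G protein subunits, gave no call either. Of 46 such genes in 6 lists, 41 were tested, and 0 passed an adjusted p of 0.2 and 0 had an unadjusted p below 0.05 in edgeR's quasi-likelihood test, beside 0.0% and 4.15% of all genes. DESeq2, the likelihood ratio test and limma-voom called 0 of them as well. In all, 26 had a log2 fold change above 0 and 15 below, with a median of 0.04, and 39 of the 41 lay within 0.2 of 0. Of all 18141 genes tested, 9539 were above 0 and 8602 below, and 14855 lay within 0.2 of 0. The smallest unadjusted p was 0.0688, for Slc28a3, a sodium-coupled nucleoside carrier at under 1 CPM, chosen for its p after the values were seen.

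Besides Nt5e, the extracellular nucleotidases that were tested were close to level. Of 8 genes 5 were tested, with a median log2 fold change of 0.00. Entpd2, which hydrolyses extracellular ATP, measured 43.9 ± 4.19 and 45.3 ± 6.80 CPM (SD, n = 3 each), and Alpl, an alkaline phosphatase, 18.4 ± 2.02 and 18.4 ± 0.927 CPM. Among the 6 tested intracellular 5′-nucleotidases the fold changes ran from 0.01 to 0.11 on the log2 scale. The most abundant per kb were Nt5c3a, at 49.4 ± 4.72 and 50.1 ± 3.66 CPM, and Nt5c3b, at 34.0 ± 0.977 and 35.5 ± 3.96 CPM.

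The 5 other nucleoside transporters had the widest range of log2 fold changes, from -0.59 for Slc28a3 to 0.55 for Slc28a1, both at under 1 CPM. The most abundant per kb were Slc29a4, a monoamine and adenosine carrier, at 19.5 ± 1.34 and 20.2 ± 0.494 CPM, and Slc29a3, an intracellular carrier, at 10.2 ± 0.504 and 11.5 ± 1.53 CPM. Of 14 genes of purine turnover 13 were tested and lay between -0.16 and 0.16. Gda, which deaminates guanine, measured 153 ± 20.01 and 155 ± 38.9 CPM, and Ahcyl1, a relative of the enzyme that releases adenosine from S-adenosylhomocysteine, 484 ± 20.3 and 482 ± 64.8 CPM. Hprt1, the purine salvage enzyme, had 0 reads and a near-copy that matched 8 of its 9 exon lengths, as Slc29a2 and Adora3 did.

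The 6 genes of ATP release and vesicular ATP uptake had a median log2 fold change of 0.05, with Gja1, the astrocyte connexin, at 682 ± 49.0 and 708 ± 43.9 CPM and Panx2, a pannexin, at 96.0 ± 6.44 and 99.2 ± 6.73 CPM. Among the 6 G protein alpha subunits, Gnas, a stimulatory subunit, measured 1401 ± 41.4 and 1363 ± 34.6 CPM. Gnai2, an inhibitory subunit used by Adora1, measured 349 ± 18.9 and 364 ± 34.3 CPM. Gnao1, another inhibitory-class subunit, was the only pathway gene tested whose groups did not overlap, at 502 ± 13.9 and 540 ± 23.5 CPM (log2 fold change 0.11, edgeR's quasi-likelihood p = 0.178, exact permutation p = 0.1), 1 of 41 beside 8.85% of all genes. It is named because of that pattern.

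**Figure D5:**
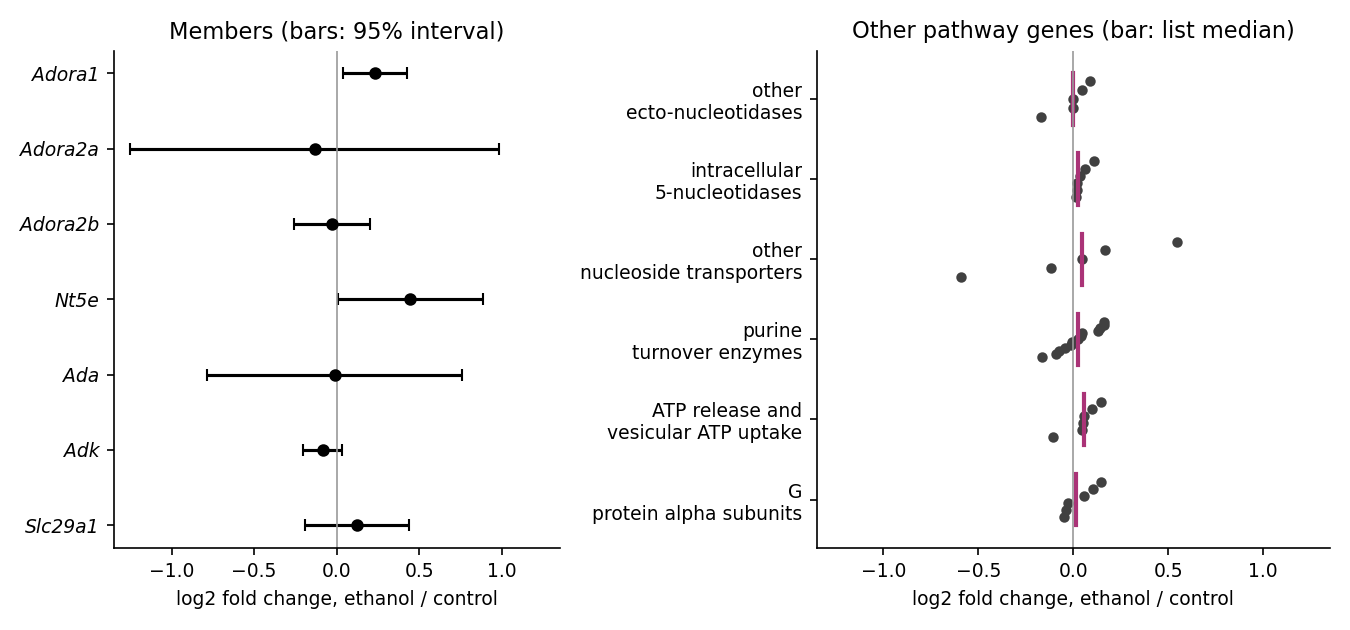
Left, log2 fold change of ethanol over control for the 7 tested members, with 95% intervals from edgeR's quasi-likelihood fit. Right, the same quantity for the 41 tested genes of the 6 pathway lists, a point per gene, with the list median as a coloured bar. The intervals of Adora1 and Nt5e begin just above 0, without adjustment, and those of Adora2a and Ada are the widest. Of the 41 pathway genes, 39 lie within 0.2 of 0, beside 14855 of all 18141 genes tested.

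The genes most alike to Adora1, Adora2a and Nt5e over the 6 libraries were sought among 14760 genes with a mean of at least 1 CPM. For Adora1 they were Lfng (Pearson r = 0.994), Avpi1 (0.993) and Cln3 (0.991). For Adora2a they were Ccdc174 (0.990), Phf5a (0.988) and Vezf1 (0.987), none of them in the striatal list. For Nt5e they were Itgav (0.994), C1h19orf12 (0.993) and Klf11 (0.989). With 6 points and so many genes such values are selected as extremes, so they are a description without a test. Adora1 and its nearest gene Lfng had means of 65.0 and 76.3 CPM against 40.0 and 48.5 CPM in control and ethanol libraries.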

How the data were processed

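RNA was sequenced from the amygdala of male rats as single-end 100 nt reads of a stranded mRNA kit over 3 lanes, in 3 control and 3 ethanol libraries. Per the labels, the authors checked reads with FastQC 0.11.8, aligned them to Rnor_6.0 with STAR 2.7.0f and counted them with featureCounts of Subread 1.6.3. The deposited values are whole-number counts per gene, neither filtered nor normalized. Per the file headers, exons were counted on the reverse strand, and reads with several alignments or overlapping several genes were left out. RNA was pooled from 2 rats per library, so p-values measure the spread between pools.

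The counts were fitted with edgeR 4.0.16 (R 4.3.3) after filterByExpr (minimum 10 counts, 15 in total). Libraries were scaled by TMM (factors 0.976 to 1.01), and groups were compared by the quasi-likelihood F test, with p adjusted by Benjamini-Hochberg over 18141 genes. The threshold of 0.2 follows the study. The study reported genes with differential expression at that threshold, whereas no gene passed it in the main fit here. The reason for this difference was not tested. The labels also list edgeR and limma among the authors' tools, and the study places its RNA-seq statistics in a supplement not used here. Standard errors are the absolute log2 fold change over the square root of F. Levels are TMM-scaled CPM, divided by exon length where genes are compared. Ratios carried a pseudocount of 0.5 counts, and exact permutation tests were 2-sided over 20 label arrangements. Depth was 62576504 to 70755739 counts, and the control libraries varied by more than counting alone gives in 6 of the 7 tested members, Adk being the exception.

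The members and lists were chosen with earlier results of these data known. Named genes were the 9 members, the 2 most abundant per kb of each pathway list, any gene of those lists with an unadjusted p below 0.05 (there was none), and the 3 genes most alike to Adora1, Adora2a and Nt5e. Other genes, such as single markers, Slc28a1, Slc28a3, Hprt1, Gnao1, Npas4 and Yif1a, were named after their values were seen. Symbols came from a RefSeq gene table, which named 29322 of 38445 identifiers. Positions of genes come from the Rnor_6.0 annotation used for counting, and promoters are RefSeq sequences of GRCr8, used for letters only.

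Alternatives were library-size and DESeq2 scaling, other filters, DESeq2 1.42.0, the likelihood ratio test, limma-voom (limma 3.58.1), a replicate block, marker scores as terms and leaving out each library. The quasi-likelihood, likelihood ratio, limma-voom and DESeq2 fits were also run on simulated counts with known fold changes. The check required a median estimate close to the true value and set no limit on false calls. Changed genes were drawn there from genes with more reads than Ada, so genes as scarce as Ada were not covered. Libraries of the same replicate number hold different rats, and the numbers were not treated as pairs in the main fit. Deviations of same-numbered libraries correlated by 0.0264, 0.388 and 0.211, and those of differently numbered libraries by -0.427 to 0.305. With so few libraries these values cannot decide whether same-numbered libraries deviate together, and the replicate block is given as an alternative.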

Additional observations from a re-analysis of the deposited data

How the results depend on the processing

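No member and no pathway gene passed an adjusted p of 0.2 under any alternative, and the lowest adjusted p of a member were 0.539 for Adora2a (striatal score), 0.575 for Adora1 and 0.613 for Nt5e. An unadjusted p below 0.05 was reached by Adora1 in 13 of 17 fits, by Nt5e in 9, by Adora2a in 1 (striatal score) and by Slc29a1 in 1 (choroid plexus score). Over all genes, DESeq2 called 74, the likelihood ratio test 77, the fit with the striatal marker score 1, and leaving out single libraries 0 to 83. There were 83 without ethanol 3 and 4 without ethanol 1. Pathway genes with an unadjusted p below 0.05 numbered 5 with the choroid plexus score, 2 with the striatal score, 1 with the replicate block and 0 to 1 without single libraries. The matching shares over all genes tested are not given for the alternative fits. These counts are therefore not read as a result about the members or the pathway genes. The 17 fits reuse the same libraries and are not independent of each other.

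Directions turned in Adora2a, Adora2b, Ada, Slc29a1 and 2 of the ratios. With the choroid plexus score as a term, log2 fold changes were 0.25 for Adora2a, 0.056 for Adora2b and 0.18 for Ada. Ada was also at 0.038 with limma-voom and 0.0056 with the striatal score. The ranges without single libraries were -0.60 to 0.41 for Adora2a (0.41 without control 1 and 0.15 without ethanol 2), -0.11 to 0.05 for Adora2b (0.046 without control 3 and 0.00035 without ethanol 1), -0.21 to 0.40 for Ada (0.40 without control 3 and 0.20 without ethanol 1) and -0.031 to 0.21 for Slc29a1 (-0.031 without ethanol 3). Adora1 kept its sign at 0.14 to 0.30, Nt5e at 0.26 to 0.66 and Adk at -0.10 to -0.07. The log2 ratio of Adora1 to Adora2a ran from -0.14 to 0.79 (-0.035 without ethanol 2), that of Ada to Adk from -0.093 to 0.44 (-0.021 without control 1, -0.018 without ethanol 2 and -0.011 without ethanol 3), and that of Nt5e to Adk from 0.35 to 0.77. The cause was not tested for any of these shifts.

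The replicate block, which pairs libraries by number only, left 0 genes called and gave Adora1 0.22, Nt5e 0.48 and Ada 0.015, the last with its sign turned. With 3 pairs a sign-flip test cannot give a p below 0.25. Adora3, Slc29a2 and the carrier ratio had no value under any alternative, because Adora3 and Slc29a2 had 0 reads. Counting limits Ada most, with 62 to 137 reads per library.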
